A study of Mus musculus with 18 samples.

Results

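Gene expression in cultured mouse lung cells treated with an agonist of the receptor Fzd6 was compared with that in cells kept for 48 h without CHIR99201, the Wnt agonist they had been grown in. The comparison holds 6 of the 18 RNA sequencing libraries of the series, chosen by title: FZD6 agonist 1 to 3 and 48 h withdrawal 1 to 3. The labels call the cells alveolar type 2, the epithelial cells of the alveolus that make surfactant. They had been cultured with CHIR99201 for 19 days, and LGK974, an inhibitor of porcupine that keeps cells from secreting Wnt proteins, was listed in every treatment. In the FZD6 group, CHIR99201 had been taken away and replaced by LGK974 with the Fzd6 agonist, whereas the 48 h group had LGK974 alone. The other 4 groups, used here only for reference, were LGK974 with CHIR99201 (CHIR), 24 h of withdrawal, and LGK974 with Wnt (WNT) or with an Fzd5 agonist (FZD5). Treatments lasted 8 to 12 h. The labels do not give the time that the FZD6 cells had spent without CHIR99201, so the agonist and a shorter time without CHIR99201 cannot be told apart in this comparison. The sources used here give no strain, genotype, sex or age, nor whether replicate libraries stem from separate cultures or animals. The p-values therefore rest on library-to-library spread alone, and that spread may be technical.

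Frizzled proteins are the cell surface receptors of Wnt ligands. With the co-receptors Lrp5 and Lrp6 they stop the Axin and Apc complex from marking beta-catenin for destruction, and beta-catenin then works with Tcf and Lef factors on target genes, among them feedback inhibitors such as Axin2, Nkd1, Rnf43 and Znrf3. Frizzled receptors also signal to cell shape through planar cell polarity proteins, a branch with which Fzd6 is often associated. In the alveolus, Wnt signals help to keep type 2 cells as a self-renewing pool, and their loss favours the turn towards the flat type 1 cells that line the air space.

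Total counts ran from 34087850 to 43298780 in the 6 libraries, which puts 3 counts at 0.0693 to 0.0880 CPM (counts scaled to library size, with TMM factors, the trimmed mean of M values). Sftpc, the gene of surfactant protein C and the defining marker of type 2 cells, took 4.24% to 5.18% of the counts in 5 libraries and 9.11% in FZD6 agonist 1. That library stood apart from the rest: the median correlation of its log2 CPM with the other libraries was 0.950, against 0.981 and 0.982 for FZD6 agonist 3 and 2. The airway secretory list summed to 1653 CPM there and to 260 to 854 CPM in the other 5, and 10 of its 12 tested genes were above all 48 h withdrawal libraries in FZD6 agonist 1. Their part in the results was not tested. Scgb1a1, a club cell secretoglobin, was at 79.8 CPM there and at 0.214 to 0.947 CPM elsewhere, and Reg3g, an antibacterial lectin, at 208 CPM against 0. Trp63, which defines basal cells, was at 8.00 CPM in that library and at 0 in the other 5, and Xist, the RNA of the inactive X chromosome, at 0 against 9.41 to 11.03 CPM. Col3a1 of fibroblasts and Cdh5 of endothelium were at 0 in all 6 libraries, and Ptprc of blood cells reached at most 0.0729 CPM. As whole lists, mesenchymal markers summed to 0.88 to 2.04 CPM and endothelial markers to 0.0279 to 0.466 CPM. Haematopoietic markers summed to 1006 to 2334 CPM. That list holds Lyz2, also a type 2 marker, which was at 793 to 2011 CPM. Whether other cell types were present was not tested. Because of FZD6 agonist 1, results are given for 3 against 3 in a fit of all 18 libraries, and for FZD6 agonist 2 and 3 against 48 h withdrawal in a fit of 14 libraries. The 14 leave out FZD6 agonist 1 and also CHIR 1, CHIR 3 and 24 h withdrawal 2, which were found apart in earlier work on these data.

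With all 3 libraries on each side, 2 of 16497 genes tested were called (edgeR quasi-likelihood test, Benjamini-Hochberg adjusted p under 0.05), both higher with the FZD6 agonist (0.0121%). None was called lower, and 666 genes (4.04%) had an unadjusted p under 0.05. DESeq2 on the same libraries called 61. The groups did not overlap at 4235 genes (25.7%). Without FZD6 agonist 1, the 14-library fit called 1294 of 17433 genes higher (7.42%) and 824 lower (4.73%), and 354 of the higher and 115 of the lower ones differed by at least 2-fold. With upper-quartile scaling factors the split was 1092 higher and 1110 lower. Leaving out FZD6 agonist 2 as well gave 782 calls, and leaving out FZD6 agonist 3 instead gave 958. The median log2 fold change over all genes tested was -0.00463. Leaving out only FZD6 agonist 1, which keeps 17 libraries and the spread of CHIR 1, CHIR 3 and 24 h withdrawal 2, called 2 genes, both higher (0.0117%). A fit of the 5 compared libraries alone called 1745 higher (11.3%) and 1538 lower (9.92%). FZD6 agonist 1 itself lay beyond all 3 withdrawal libraries, on the side of the call, at 693 of the 1294 genes called higher (53.6%) and at 426 of the 824 called lower (51.7%). Over all 17433 genes, FZD6 agonist 2 and 3 did not overlap withdrawal at 8282 (47.5%). All 3 agonist libraries lay on one side of withdrawal at 4321 (24.8%). So FZD6 agonist 1 shared the side about as often at called genes as at non-overlapping genes in general. The share of all genes at which FZD6 agonist 1 alone lay above or below withdrawal was not computed, so its counts in single lists lack that share.

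Steap1 and Mcpt2 were the genes called with all 18 libraries. Steap1, a metalloreductase of the cell membrane (minus strand of chromosome 5 from 5736317 to 5749326; gene positions are GRCm38 by GENCODE M21), was at 22.1, 11.9 and 12.4 CPM in FZD6 agonist 1 to 3 and at 2.43, 2.25 and 2.73 CPM in 48 h withdrawal 1 to 3. Every agonist library lay above every withdrawal library, at a log2 fold change of 2.64 ± 0.329 (SE, adjusted p = 0.0120, edgeR). In the 14-library fit the value was 2.30 ± 0.187 (adjusted p = 2.7e-06, edgeR). Mcpt2, a mast cell protease gene (plus strand of chromosome 14 from 56042041 to 56044642), had 639, 101 and 69 counts with the agonist and 3, 7 and 4 counts after withdrawal. Its log2 fold change was 5.70 ± 0.829 (adjusted p = 0.0409, edgeR) over 18 libraries and 3.94 ± 0.431 (adjusted p = 3.21e-05, edgeR) over 14. Ptprc, which marks blood cells, was at 0 in all 3 agonist libraries, and the cell source of the Mcpt2 RNA was not tested. The withdrawal libraries were near 3 counts of Mcpt2, so the size of this fold is uncertain. Leaving out any 1 of the 3 withdrawal libraries from the 18 left no gene called.

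The fit of the 6 compared libraries alone called 30 of 15097 genes, 17 higher (0.113%) and 13 lower (0.0861%). Steap1 was among them. Car2, a carbonic anhydrase, was at 145, 120 and 112 CPM with the agonist and at 26.1, 34.3 and 29.2 CPM after withdrawal (log2 fold change 2.06 ± 0.141 SE, adjusted p = 0.0158 in this edgeR fit). Etv5, an ETS factor of type 2 cells downstream of FGF signalling, was at 284, 310 and 300 CPM against 145, 136 and 149 CPM (1.05 ± 0.0852, adjusted p = 0.0192, edgeR). Wnt7b, a Wnt ligand of the lung epithelium, was at 39.9, 36.8 and 31.5 CPM against 15.2, 17.4 and 13.8 CPM (1.21 ± 0.133, adjusted p = 0.0373, edgeR). In the other direction, Itm2a, a small membrane protein, was at 71.2, 72.7 and 76.1 CPM against 187, 174 and 171 CPM (-1.28 ± 0.0803, adjusted p = 0.0158, edgeR). Fbp1, an enzyme of gluconeogenesis, was at 81.5, 87.8 and 95.4 CPM against 281, 246 and 297 CPM (-1.65 ± 0.114, adjusted p = 0.0158, edgeR). Bambi, a decoy receptor that dampens TGF-beta and BMP signals, was at 18.9, 16.7 and 16.5 CPM against 31.4, 30.0 and 32.2 CPM (-0.86 ± 0.0974, adjusted p = 0.0396, edgeR). At none of these 6 genes did the groups overlap. All 6 were also called in the 14-library fit, which shares 5 of these libraries, and none in the fit of 18.

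Of 26 Wnt feedback and target genes tested in the 14-library fit, 7 were higher and 3 lower with the FZD6 agonist, and their median log2 fold change was 0.248. Over all genes tested, 7.42% were called higher and 4.73% lower. Axin2, the feedback scaffold that is the usual readout of beta-catenin signalling (plus strand of chromosome 11 from 108920349 to 108950783), was low in every library: 1.09, 2.90 and 2.12 CPM with the agonist and 0.413, 0.771 and 0.167 CPM after withdrawal. The groups did not overlap, and the 14-library log2 fold change was 2.49 ± 0.402 (adjusted p = 7.81e-04, edgeR). Over 18 libraries it was 2.17 ± 1.01 and did not pass (adjusted p = 1, edgeR). Sox9, a factor of the lung's distal tip cells (plus strand of chromosome 11 from 112782224 to 112787760), had 290, 233 and 179 counts against 20, 1 and 7 counts. Lgr5, an R-spondin receptor that marks Wnt-responsive stem cells in other tissues, had 104, 36 and 53 counts against 0, 0 and 4 counts. Tcf7, a DNA-binding partner of beta-catenin, had 133, 78 and 110 counts against 33, 15 and 33 counts. At all 3 of these genes each agonist library exceeded each withdrawal library, and the 14-library adjusted p-values from edgeR were 1.79e-04 for Sox9, 4.44e-03 for Lgr5 and 8.08e-03 for Tcf7. Their fitted log2 fold changes of 4.27, 4.74 and 1.60 rest on few counts after withdrawal and depend on the prior count.

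At better expressed members the differences were smaller. Myc, the growth factor-induced transcription factor, was at 91.0, 42.1 and 45.6 CPM with the agonist and at 22.4, 19.6 and 22.1 CPM after withdrawal (14-library log2 fold change 1.04 ± 0.184 SE, adjusted p = 2.28e-03, edgeR). Rnf43, a ubiquitin ligase that removes Frizzled receptors, was at 53.6 and 53.5 CPM in FZD6 agonist 2 and 3 against 37.1 to 42.3 CPM (0.47 ± 0.0940, adjusted p = 3.82e-03, edgeR), and at 28.7 CPM, below all withdrawal libraries, in FZD6 agonist 1. Sp5, a zinc finger repressor and direct Wnt target, behaved the same way, at 109 and 102 CPM against 71.0 to 82.2 CPM, with 37.2 CPM in FZD6 agonist 1. Nkd1, another feedback inhibitor, was at 12.2, 32.0 and 28.4 CPM against 67.8, 30.6 and 57.2 CPM and was not called (-0.77 ± 0.400, adjusted p = 0.267, edgeR). Lef1 had no count in any agonist library and 0 to 0.0558 CPM after withdrawal. Besides Bambi, Ephb3, an ephrin receptor, fell by 0.67 and Cd44, the hyaluronan receptor, by 0.32 on the log2 scale. Znrf3, also a feedback inhibitor, was at 16.02, 17.01 and 16.42 CPM with the agonist and at 10.52, 14.21 and 7.249 CPM after withdrawal. The groups did not overlap there, but it was not called (0.6576 ± 0.234, adjusted p = 0.0894, edgeR). Of the feedback inhibitors Axin2, Nkd1, Rnf43 and Znrf3, Axin2 and Rnf43 were thus called higher in the 14-library fit, and none was called lower.

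**Figure D1:**
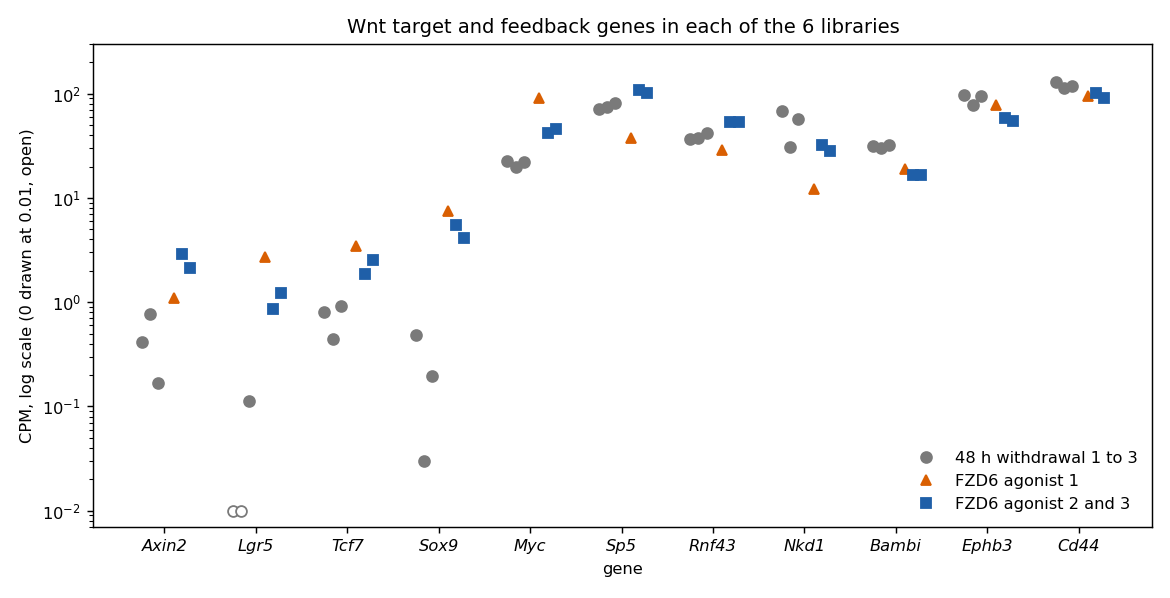
CPM on a log axis of 11 Wnt target and feedback genes in 48 h withdrawal 1 to 3 (grey circles), FZD6 agonist 1 (orange triangles) and FZD6 agonist 2 and 3 (blue squares); a value of 0 is drawn open at 0.01. Axin2, Lgr5, Tcf7, Sox9 and Myc are higher in all 3 agonist libraries, Sp5 and Rnf43 are higher in FZD6 agonist 2 and 3 and lower in FZD6 agonist 1, and Bambi and Cd44 are lower in all 3.

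Promoters were searched on both strands for CTTTGAT and CTTTGAA, letters of Tcf and Lef sites. Of the 7 Wnt genes called higher 4 had a RefSeq window, and Sp5 was the 1 that held CTTTGAT, which is why it is shown; none held the other motif. The letters CTTTGAT lay in 3.73%, and those of CTTTGAA in 5.14%, of all 32851 mouse windows of 300 bases (250 before to 50 after a start site). A gene counted as holding a motif if any of its windows did, so counts of genes and shares of windows are unlike measures. The 250 bases before the start site of Sp5, chr2:70474673-70474922, plus strand (RefSeq, GRCm38.p6), are given 5′ to 3′ with CTTTGAT, 104 bases before the start, in capitals.
Sp5: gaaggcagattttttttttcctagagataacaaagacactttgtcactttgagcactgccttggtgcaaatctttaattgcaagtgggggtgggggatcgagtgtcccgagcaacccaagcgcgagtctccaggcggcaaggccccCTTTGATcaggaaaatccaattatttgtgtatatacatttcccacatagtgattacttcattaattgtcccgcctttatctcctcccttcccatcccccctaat

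The receptors themselves differed little. Fzd6, the receptor the agonist is named for (plus strand of chromosome 15 from 39006034 to 39038188), was at 86.6, 74.6 and 77.9 CPM with the agonist and at 82.8, 77.4 and 72.5 CPM after withdrawal, and the groups overlapped (14-library log2 fold change -0.02 ± 0.0876 SE, adjusted p = 0.928, edgeR). On the authors' length-scaled RPKM values, Fzd6 was at 14.7 to 17.2 in the 6 libraries and Fzd5 at 1.11 to 1.64, so these cells held more Fzd6 than Fzd5 RNA in both groups. Of the 14 Frizzled and co-receptor genes tested, 1 was called higher and 1 lower. Shares over all genes were 7.42% higher and 4.73% lower, and the calls of this list and of the planar polarity list were near them. Lrp5 was at 20.2, 23.5 and 24.3 CPM against 12.2, 14.03 and 17.6 CPM (0.72 ± 0.183, adjusted p = 0.0195, edgeR), and Fzd8 at 22.0, 20.1 and 21.2 CPM against 30.9, 36.3 and 30.7 CPM (-0.65 ± 0.127, adjusted p = 2.91e-03, edgeR). Among 11 genes of Wnt ligands and their secretion, Wnt7b alone was called. Of 20 planar polarity genes, Daam1, a formin that builds actin filaments (0.71), and Vangl1, a core membrane component (0.38), were called higher. Prickle1, the cytoplasmic partner of Vangl1, was called lower (-1.04 on the log2 scale). All 3 agonist libraries lay above withdrawal at Vangl1. At Daam1, FZD6 agonist 1 was at 37.99 CPM, within the withdrawal range of 33.01 to 39.5 CPM. At Prickle1 that library was at 3.261 CPM, above the 2.016 to 3.025 CPM of withdrawal. FZD6 agonist 2 and 3 were at 1.306 and 1.015 CPM of Prickle1. Vangl2 was at 4.12 to 5.004 CPM against 3.85 to 5.43 CPM and was not called. Among 13 genes of beta-catenin and its destruction complex none was higher and 3 were lower. Ctnnb1, which encodes beta-catenin, was at 799, 882 and 904 CPM against 1101, 1171 and 1057 CPM (-0.31 ± 0.0778, adjusted p = 0.0172, edgeR), and Amer1 and Bcl9 fell by 0.47 and 0.56. The median of these 4 lists ran from -0.150 to 0.169.

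Genes of cell division were higher in FZD6 agonist 2 and 3, and not in FZD6 agonist 1. All 20 tested genes of G2/M and mitosis were called higher in the 14-library fit (7.42% of all genes), with a median log2 fold change of 1.38, and 19 of 20 genes of G1/S and DNA replication, with a median of 0.869. Over 18 libraries none of the 40 was called. Mki67, the proliferation marker, was at 36.5, 163 and 126 CPM with the agonist and at 51.2, 64.8 and 60.7 CPM after withdrawal. FZD6 agonist 1 was thus the lowest and FZD6 agonist 2 and 3 the highest of the 6 libraries (1.30 ± 0.162 SE, adjusted p = 2.97e-04, edgeR, 14 libraries). Cdc20, which activates the anaphase ligase, was at 109, 395 and 350 CPM against 108, 130 and 147 CPM. Ube2c, the ubiquitin-conjugating enzyme of that ligase, was at 32.4, 78.6 and 66.9 CPM against 21.2, 31.02 and 27.2 CPM and was 1 of the 20 at which FZD6 agonist 1 also exceeded all withdrawal libraries. Among replication genes, Mcm5, a subunit of the replicative helicase, was at 35.7, 75.5 and 69.1 CPM against 30.5, 37.9 and 39.2 CPM, and Rrm1, of the enzyme that makes deoxynucleotides, at 91.6, 199 and 185 CPM against 95.05, 109 and 106 CPM. FZD6 agonist 1 lay below all withdrawal libraries at 12 of the 20 G1/S genes and at 8 of the 20 G2/M genes. In bulk RNA, more dividing cells and more of these RNAs per dividing cell cannot be told apart.

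The promoters of these mitotic genes were searched for CCAAT and for TTTGAA, the letters of the cell cycle homology region, on both strands; both motifs were added after the values were seen, and TTTGAA lies within CTTTGAA. Of the 20 called genes 16 had a RefSeq window. TTTGAA lay in 12 of the 16, against 17.9% of all windows, and CCAAT in 15 of the 16, against 37.4%. A gene counted if any of its windows matched, whereas the shares are of single windows, so these measures are unlike. The 12 genes with TTTGAA all held CCAAT too, and Ube2c is shown as an example of them. The 250 bases before its start site, chr2:164769679-164769928, plus strand (RefSeq, GRCm38.p6), hold CCAAT 6 times, read as ATTGG on the minus strand, and TTTGAA once, read as TTCAAA, 29 bases before the start; all are in capitals, and 2 of the CCAAT matches overlap.
Ube2c: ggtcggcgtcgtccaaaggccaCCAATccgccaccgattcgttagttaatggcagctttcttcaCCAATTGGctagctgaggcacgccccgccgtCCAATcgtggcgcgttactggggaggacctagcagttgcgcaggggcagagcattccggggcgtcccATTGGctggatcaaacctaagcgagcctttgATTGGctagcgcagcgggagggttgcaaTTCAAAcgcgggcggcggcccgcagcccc

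Genes of ribosome assembly were higher in all 3 agonist libraries. In the 14-library fit 14 of 20 ribosome biogenesis and Myc target genes were called higher and none lower (median 0.417). Over all genes 7.42% were called higher. At 18 of the 20 every agonist library exceeded every withdrawal library, against 13.2% of the genes tested over 18 libraries. In either direction, 24.8% of all genes tested in the 14-library fit did not overlap. Nop58, a core protein of the particles that methylate ribosomal RNA, was at 68.0, 50.8 and 56.0 CPM with the agonist and at 28.2, 34.3 and 33.1 CPM after withdrawal (0.75 ± 0.104 SE, adjusted p = 2.14e-04, edgeR). Srm, spermidine synthase, was at 104, 61.2 and 61.8 CPM against 32.7, 37.0 and 38.8 CPM. Ncl, which encodes nucleolin, was at 350, 327 and 321 CPM against 223, 242 and 240 CPM. In this list FZD6 agonist 1 was above all withdrawal libraries at all 20 genes.

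Genes that make serine, glycine and one-carbon units, and those that load amino acids onto tRNA, were higher as well, most of all in FZD6 agonist 1. Of 12 serine and one-carbon genes 9 were called higher (against 7.42% of all genes) and none lower in the 14-library fit (median 1.13). Phgdh, the first enzyme of serine synthesis, was at 25.03, 7.05 and 7.24 CPM with the agonist and at 2.58, 2.70 and 2.84 CPM after withdrawal (1.41 ± 0.163 SE, adjusted p = 4.85e-05, edgeR). Psat1, the second enzyme, was at 232, 108 and 104 CPM against 41.6, 46.1 and 51.97 CPM, and Shmt2, which makes glycine in mitochondria, at 267, 99.5 and 92.6 CPM against 45.4, 47.1 and 52.2 CPM. Mthfd2, of the mitochondrial folate cycle, was at 363, 77.2 and 74.9 CPM against 34.1, 27.1 and 29.9 CPM. At 11 of the 12 genes every agonist library exceeded every withdrawal library, against 13.2% of the genes tested over 18 libraries. FZD6 agonist 1 was several times higher than FZD6 agonist 2 and 3 at Phgdh and Mthfd2. Over 18 libraries the median was 1.68 and no member passed. Of 20 aminoacyl-tRNA synthetase genes 14 were called higher (against 7.42% of all genes) and none lower (median 0.466). Yars, for tyrosine, was at 280, 146 and 131 CPM against 87.3, 80.4 and 85.6 CPM (0.72 ± 0.105, adjusted p = 3.27e-04, edgeR), and Tars, for threonine, at 226, 128 and 120 CPM against 80.3, 91.6 and 82.7 CPM. Aars, for alanine, was at 862, 306 and 306 CPM against 210, 207 and 222 CPM.

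Atf4 is the transcription factor through which shortage of amino acids and other stresses raise such genes. Atf4 itself was at 321, 129 and 136 CPM with the agonist and at 87.0, 73.3 and 73.4 CPM after withdrawal (0.77 ± 0.192 SE, adjusted p = 0.0248, edgeR, 14 libraries). Of 17 genes of the integrated stress response 5 were called higher (against 7.42% of all genes) and none lower (median 0.913). Asns, asparagine synthetase (minus strand of chromosome 6 from 7675169 to 7693254), was at 544, 124 and 118 CPM against 69.2, 61.2 and 63.1 CPM (0.91 ± 0.170, adjusted p = 4.59e-03, edgeR). Ddit3, the stress factor Chop, was at 119, 49.97 and 57.4 CPM against 19.5, 14.5 and 17.04 CPM, and Slc7a5, an amino acid importer, at 374, 134 and 131 CPM against 67.8, 60.6 and 73.9 CPM. Trib3, a pseudokinase target of Atf4, was at 275, 95.5 and 106 CPM against 37.3, 13.9 and 29.9 CPM and did not pass (1.90 ± 0.560, adjusted p = 0.0644, edgeR). FZD6 agonist 1 had the highest value at each of these 5 genes, and at 16 of the 17 it exceeded every withdrawal library.

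The letters TGATGNAA, with which Atf4 sites are often written, were searched on both strands. They lay in 3.97% of all windows, in 5 of the 9 called tRNA synthetase genes that had a window (Aars, Gars, Iars, Tars and Yars), in 1 of 4 called stress response genes (Asns) and in 1 of 8 called serine genes (Pycr1). Here too a gene counted if any of its windows matched, unlike the share of single windows. The windows of Asns, the 1 stress response gene with a match, and of Tars, 1 of the 5 synthetase genes, are shown as examples. Both are the 250 bases before the start site, on the minus strand (RefSeq, GRCm38.p6), at chr6:7693210-7693459 for Asns and chr15:11399659-11399908 for Tars. The match, in capitals, begins 23 bases before the start in Asns and 15 in Tars, where it is read on the opposite strand as TTGCATCA.
Asns: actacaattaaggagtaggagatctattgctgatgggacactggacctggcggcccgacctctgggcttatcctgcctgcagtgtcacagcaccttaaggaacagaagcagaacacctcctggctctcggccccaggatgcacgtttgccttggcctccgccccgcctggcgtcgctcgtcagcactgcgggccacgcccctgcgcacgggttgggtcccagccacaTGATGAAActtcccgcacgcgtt
Tars: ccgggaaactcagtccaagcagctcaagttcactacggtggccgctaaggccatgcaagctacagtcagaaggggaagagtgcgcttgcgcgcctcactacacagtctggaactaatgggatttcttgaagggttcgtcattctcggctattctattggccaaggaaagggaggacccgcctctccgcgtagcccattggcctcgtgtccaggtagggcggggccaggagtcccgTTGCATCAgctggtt

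The folding machinery of the endoplasmic reticulum was modestly higher in FZD6 agonist 2 and 3. Of 18 genes of the unfolded protein response 13 were called higher (against 7.42% of all genes) and none lower (median 0.377). Hspa5, the chaperone BiP, was at 1015, 1550 and 1558 CPM with the agonist and at 1046, 1038 and 1053 CPM after withdrawal (0.58 ± 0.0639 SE, adjusted p = 3.42e-05, edgeR, 14 libraries). Hsp90b1, the chaperone Grp94, was at 417, 881 and 877 CPM against 610, 587 and 611 CPM. FZD6 agonist 1 was below all 3 withdrawal libraries at both genes and at 11 of the 18.

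**Figure D2:**
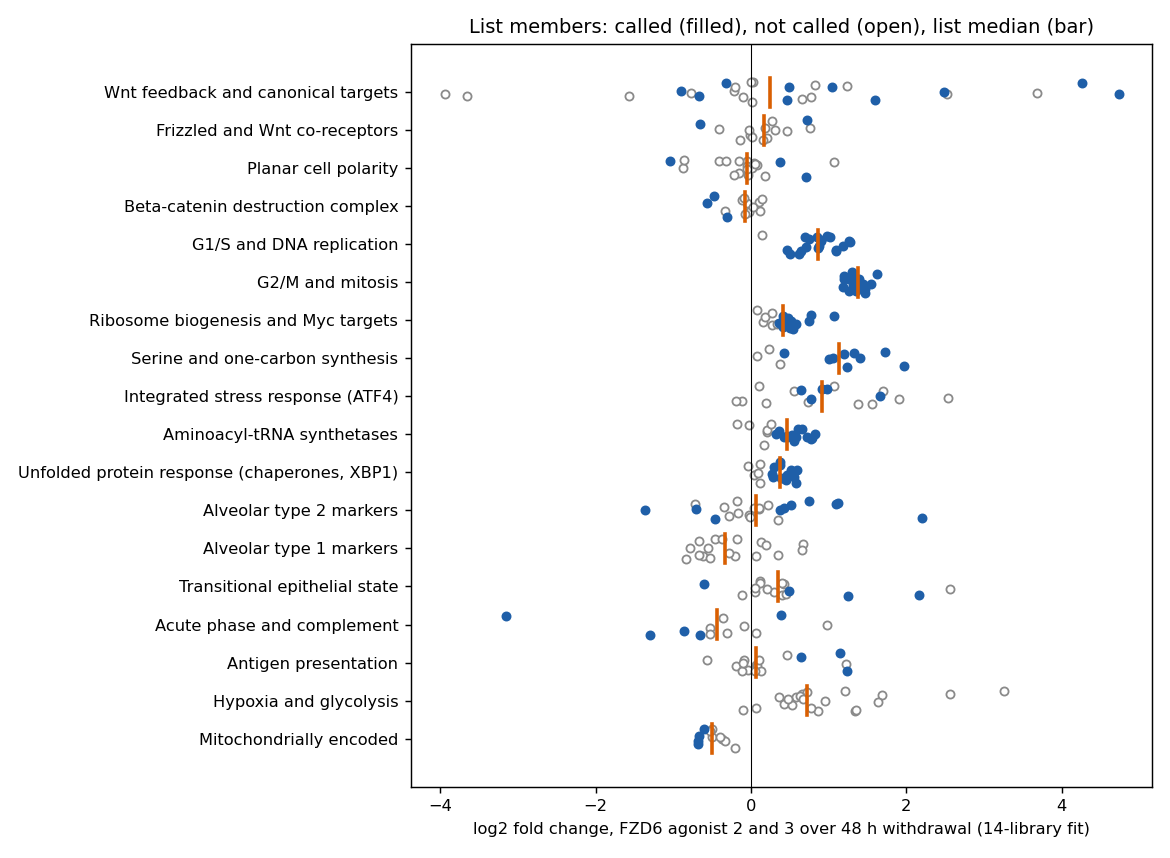
Log2 fold change of FZD6 agonist 2 and 3 over 48 h withdrawal in the 14-library fit for the tested members of 18 gene lists; filled points were called, open points were not, and the bar is the list median. All G2/M members lie to the right of 1, mitochondrially encoded genes lie left of 0, and the Wnt list spreads to both sides.

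Type 2 markers did not move as a block. In the 14-library fit 7 of 22 were called higher and 3 lower (median 0.0673), against 7.42% higher and 4.73% lower over all genes. Sftpc was at 97840, 48420 and 51720 CPM with the agonist and at 45180, 51930 and 43120 CPM after withdrawal, and did not differ in the 14-library fit (0.11 ± 0.130 SE, adjusted p = 0.669, edgeR). Sftpa1, of surfactant protein A, was at 9636, 11130 and 12570 CPM against 5031, 6097 and 5229 CPM (1.13 ± 0.178, adjusted p = 1.42e-03, edgeR). Lamp3, a protein of the lamellar bodies that store surfactant, was at 1314, 1501 and 1526 CPM against 1181, 1072 and 1154 CPM (0.42 ± 0.0808, adjusted p = 2.63e-03, edgeR). Lyz1, a lysozyme, was at 6154, 1481 and 1280 CPM against 254, 418 and 234 CPM. Its near-identical neighbour Lyz2 was at 793, 2008 and 2011 CPM against 1226, 1234 and 1135 CPM, so FZD6 agonist 1 was the highest library at one and the lowest at the other, and how reads were split between the pair is uncertain. Chil1, a chitinase-like lectin that is abundant in these cells, was at 6582, 10900 and 10650 CPM against 17780, 18110 and 17330 CPM (-0.71 ± 0.0690, adjusted p = 1.04e-05, edgeR). S100g, a calcium-binding protein, was at 14.5, 32.2 and 33.7 CPM against 83.9, 95.7 and 77.2 CPM. The agonist libraries lay below all withdrawal libraries at both of these genes, and above them at Sftpa1, Lamp3 and Lyz1.

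No type 1 marker passed the test. Of 18 tested, 10 had lower values in all 3 agonist libraries than in any withdrawal library, and none had higher ones. Over 18 libraries the groups did not overlap, with lower values, at 12.4% of all genes. The 14-library median was -0.334. Hopx, a homeodomain protein of type 1 cells, was at 51.3, 151 and 150 CPM with the agonist and at 266, 232 and 220 CPM after withdrawal (-0.67 ± 0.209 SE, adjusted p = 0.0671, edgeR). Ager, which encodes the receptor RAGE, was at 1099, 1784 and 1684 CPM against 2666, 2828 and 2541 CPM (-0.62 ± 0.251, adjusted p = 0.151, edgeR). Cav1, of caveolae, was at 3.08, 28.7 and 23.1 CPM against 44.7, 40.7 and 29.4 CPM, and Rtkn2 at 0.647, 5.53 and 6.29 CPM against 9.60, 14.3 and 6.94 CPM. The groups did not overlap at any of the 4, and FZD6 agonist 1 was the lowest library at each. Other members went the other way, and 6 of the 18 had a positive 14-library log2 fold change. Akap5 was at 146, 593 and 548 CPM against 367, 403 and 310 CPM (0.67 ± 0.208, adjusted p = 0.0652, edgeR). It was thus above withdrawal in FZD6 agonist 2 and 3 and below it in FZD6 agonist 1. Among 16 genes of the transitional state between the 2 cell types, 3 were called higher and 1 lower (median 0.344). The shares over all genes were 7.42% higher and 4.73% lower. Krt8, the keratin marker of that state, was at 147, 199 and 176 CPM against 146, 120 and 146 CPM and was not called (0.45 ± 0.151, adjusted p = 0.0718, edgeR). The members called were Tubb6, a tubulin (2.16), Plaur, the urokinase receptor (1.25), and Hbegf, an EGF receptor ligand (0.49), and Clu, clusterin, which fell by 0.61 in the 14-library fit but was at 3792 CPM, above all withdrawal libraries, in FZD6 agonist 1.

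Several secreted proteins of inflammation and host defence were lower. Hp, haptoglobin (minus strand of chromosome 8 from 109575128 to 109579172), was at 305, 61.7 and 60.2 CPM with the agonist and at 609, 473 and 555 CPM after withdrawal (-3.16 ± 0.152 SE, adjusted p = 1.14e-07, edgeR, 14 libraries). C3, the central complement component, was at 282, 231 and 226 CPM against 424, 407 and 417 CPM (-0.86 ± 0.0772, adjusted p = 6.64e-06, edgeR). Both were lower in all 3 agonist libraries. Of 12 acute phase and complement genes 4 were called lower and 1 higher (median -0.441), against 4.73% lower and 7.42% higher over all genes. Retnla, a resistin-like protein, was at 3.03, 1.38 and 0.577 CPM against 31.6, 16.3 and 27.97 CPM (-4.69 ± 0.536, adjusted p = 4.86e-04, edgeR). Of 22 genes of the NF-kB and chemokine list 2 were called higher and 2 lower, against 12.1% of all genes called either way. Cxcl17, a mucosal chemokine, was at 12.55, 1.16 and 1.36 CPM against 3.74, 2.99 and 4.29 CPM (-1.53 ± 0.242, adjusted p = 6.15e-04, edgeR), so FZD6 agonist 1 lay above and the other agonist libraries below withdrawal. Birc3, an inhibitor of cell death, fell by 0.37 on the log2 scale. Cxcl3, which attracts neutrophils, was higher by 0.52, but FZD6 agonist 1 was at 52.4 CPM, below the 60.1 to 67.2 CPM of withdrawal. Cxcl5, of the same kind, was at 248, 381 and 366 CPM against 288, 326 and 297 CPM (0.31 ± 0.0843, adjusted p = 0.0269, edgeR). Of 16 antigen presentation genes 3 were called higher (against 7.42% of all genes) and none lower (median 0.069). All 3 belong to MHC class II, which type 2 cells express. H2-Ab1 was at 11.3, 140 and 128 CPM against 64.2, 41.9 and 65.0 CPM (1.23 ± 0.271, adjusted p = 0.0179, edgeR), and H2-Eb1 and Ciita, the transactivator of the class, were called higher too. The class II genes H2-Aa (1.22, adjusted p = 0.0847, edgeR) and Cd74 (0.07, adjusted p = 0.754, edgeR) did not pass. FZD6 agonist 1 was far below the withdrawal libraries at the 3 called genes, with 1.68 CPM of H2-Eb1 against 13.3 to 20.4 CPM.

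Among called genes with a mean log2 CPM of at least 2, a floor that leaves out low genes such as Lgr5, Sox9 and Mcpt2, the 14-library fit ranked these differences as largest. Tmem132c and Tmem132d, related membrane proteins, were at 13.6 and 10.9 CPM and at 7.74 and 5.21 CPM in FZD6 agonist 2 and 3, against 0.363 to 0.656 CPM and 0.146 to 0.564 CPM after withdrawal (4.66 ± 0.334 SE, adjusted p = 2.7e-06, and 4.42 ± 0.507, adjusted p = 2.02e-04, edgeR). FZD6 agonist 1 was at 0.595 CPM of Tmem132c, within the withdrawal range. Ctnnd2, delta-catenin, an adherens junction protein, was at 12.9, 49.1 and 39.5 CPM against 3.38, 5.31 and 3.88 CPM (3.42 ± 0.175, adjusted p = 1.14e-07, edgeR). Podxl, Sema5a, Tgfb3, Bhlha15, Lyz1, Steap1 and Tubb6 completed the 10 highest. Tgfb3, a TGF-beta ligand, was at 41.6, 125 and 108 CPM against 19.9, 29.0 and 23.6 CPM, above withdrawal in all 3. The 10 lowest were Retnla, Hp, Chst4, Htra4, Mme, Bmp3, Abcc8, Frrs1, S100a6 and Msln. Mme, the membrane peptidase neprilysin, was at 0, 1.73 and 1.54 CPM against 14.1, 7.95 and 12.0 CPM, and Bmp3 at 3.90 and 2.86 CPM in FZD6 agonist 2 and 3 against 17.5 to 21.4 CPM, with 25.9 CPM in FZD6 agonist 1. Abcc8, Frrs1, S100a6 and Msln were likewise highest of all 6 libraries in FZD6 agonist 1.

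**Figure D3:**
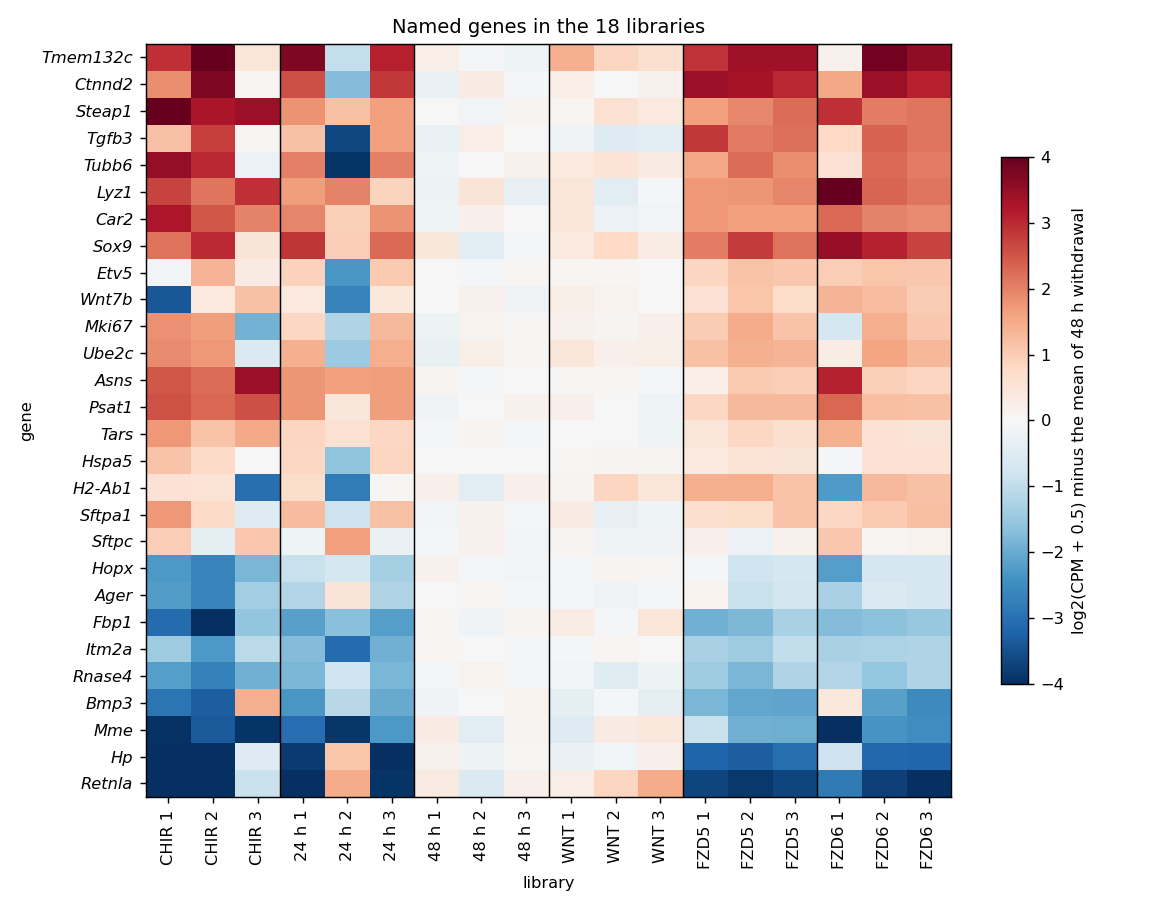
Level of 28 named genes in all 18 libraries as log2(CPM + 0.5) minus the mean of 48 h withdrawal, with colours limited at 4 in either direction. Hp and Retnla are low and Ctnnd2 and Tmem132c high in FZD6 agonist 2 and 3, and FZD6 agonist 1 lies on the other side of 0 from them at Mki67, H2-Ab1 and Bmp3.

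Calls in lists of other pathways are read against 7.42% higher and 4.73% lower over all genes of the 14-library fit. Of 20 genes of ERK feedback and of FGF and EGF receptors 4 were higher and 2 lower, among them Etv5, Dusp5, a phosphatase of ERK (1.44), Phlda1 (0.50) and Egfr (0.77) on the higher side. In FZD6 agonist 1, Egfr was at 6.81 CPM, within the withdrawal range of 6.08 to 7.05 CPM. Of 14 YAP targets 3 were higher (Amotl2, Ajuba and Crim1) and none lower. FZD6 agonist 1 lay below all withdrawal libraries at Amotl2 (104 CPM against 146 to 152 CPM) and Ajuba (89.9 CPM against 135 to 144 CPM). At Crim1 it was at 8.46 CPM, within the range of 5.63 to 8.94 CPM. Of 17 TGF-beta genes Tgfb3 was higher and Pmepa1, a feedback inhibitor, lower. Of 20 cholesterol synthesis genes 4 were higher and 1 lower (median 0.171), and of 20 fatty acid and phospholipid genes 1 was higher and 2 lower. Fasn, fatty acid synthase, was at 1885, 4342 and 4457 CPM with the agonist and at 3189, 2859 and 3095 CPM after withdrawal, and Scd1, which desaturates fatty acids, at 52790, 46190 and 51530 CPM against 73230, 67780 and 69010 CPM. At Scd1 all 3 agonist libraries were lower (-0.51 ± 0.0997 SE, adjusted p = 2.94e-03, edgeR). Of 17 p53 targets 1 was higher and 2 were lower, but FZD6 agonist 1 exceeded all withdrawal libraries at 16. None of the 21 hypoxia and glycolysis genes was called, although 19 were higher in FZD6 agonist 2 and 3 than in any withdrawal library, against 24.0% of all genes (median 0.716). Slc2a1, a glucose transporter, was at 143, 376 and 403 CPM against 209, 108 and 187 CPM, and 48 h withdrawal 2 and FZD6 agonist 1 were the low libraries. All 11 tested mitochondrially encoded genes had a negative log2 fold change (median -0.507), and 4 were called lower. mt-Cytb, a subunit of complex III, was at 1791, 1764 and 1975 CPM against 2658, 3030 and 2887 CPM (-0.61 ± 0.135, adjusted p = 9.04e-03, edgeR).

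The same fits set the FZD6 agonist against the other groups. These comparisons share the FZD6 libraries, so their calls are not independent. Against the FZD5 agonist, no gene was called higher and 1 lower in the 14-library fit (0.00574%), with 533 at an unadjusted p under 0.05 (3.06%), and none in the 18-library fit, where 164 genes were at an unadjusted p under 0.05 (0.994%). The 1 gene, Zcchc14, an RNA-binding zinc knuckle protein, was at 14.2, 18.2 and 15.2 CPM with the FZD6 agonist and at 30.4, 33.4 and 30.0 CPM with the FZD5 agonist (-0.91 ± 0.119 SE, adjusted p = 0.0225, edgeR). It is named because it was the sole call. For Axin2 the difference of FZD6 from FZD5 had a 95% interval of -1.26 to 0.228 on the log2 scale, for Sox9 -0.310 to 1.47, for Mki67 -0.292 to 0.420 and for Hp -0.272 to 0.307. No difference between the 2 agonists was called at these 4 genes. Against WNT, 1153 genes were called higher (6.61%) and 904 lower (5.19%), and none in the 18-library fit, where 606 had an unadjusted p under 0.05 (3.67%). The 14-library calls included 20 of 20 G2/M genes and 7 of 12 serine genes higher. Axin2 was at 0.384, 0.373 and 0.238 CPM in the WNT libraries and at 4.94, 2.88 and 2.95 CPM in the FZD5 libraries.

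Against 24 h withdrawal 1 and 3 far fewer genes were called in the 14-library fit: 93 higher (0.533%) and 25 lower (0.143%). The gap was smaller at an unadjusted p under 0.05 (edgeR), with 2175 genes (12.5%) against 24 h and 4561 (26.2%) against 48 h. This baseline also holds fewer libraries than that of 48 h. The 18-library fit called none, with 2517 genes at an unadjusted p under 0.05 (15.3%). No G2/M, tRNA synthetase or stress response gene was called, and of the serine genes 2 were lower. Axin2 was at 2.20 and 1.83 CPM in those 24 h libraries, Mki67 at 104 and 146 CPM, Asns at 222 and 207 CPM and Hp at 37.7 and 33.6 CPM. Hp was thus higher with the FZD6 agonist than at 24 h (0.79, adjusted p = 0.0324, edgeR) and lower than at 48 h. Cxcl5 was higher than at 24 h by 1.61 and Lyz2 by 1.53 on the log2 scale. Against CHIR, the 14-library fit, in which CHIR 2 stands alone and is assumed to vary like the other groups, called 954 genes higher (5.47%) and 524 lower (3.01%). The 18-library fit called 1 higher (0.00606%), with 1067 at an unadjusted p under 0.05 (6.47%). In CHIR 2, Axin2 was at 9.43 CPM and Steap1 at 28.2 CPM, both above every FZD6 library.

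**Figure D4:**
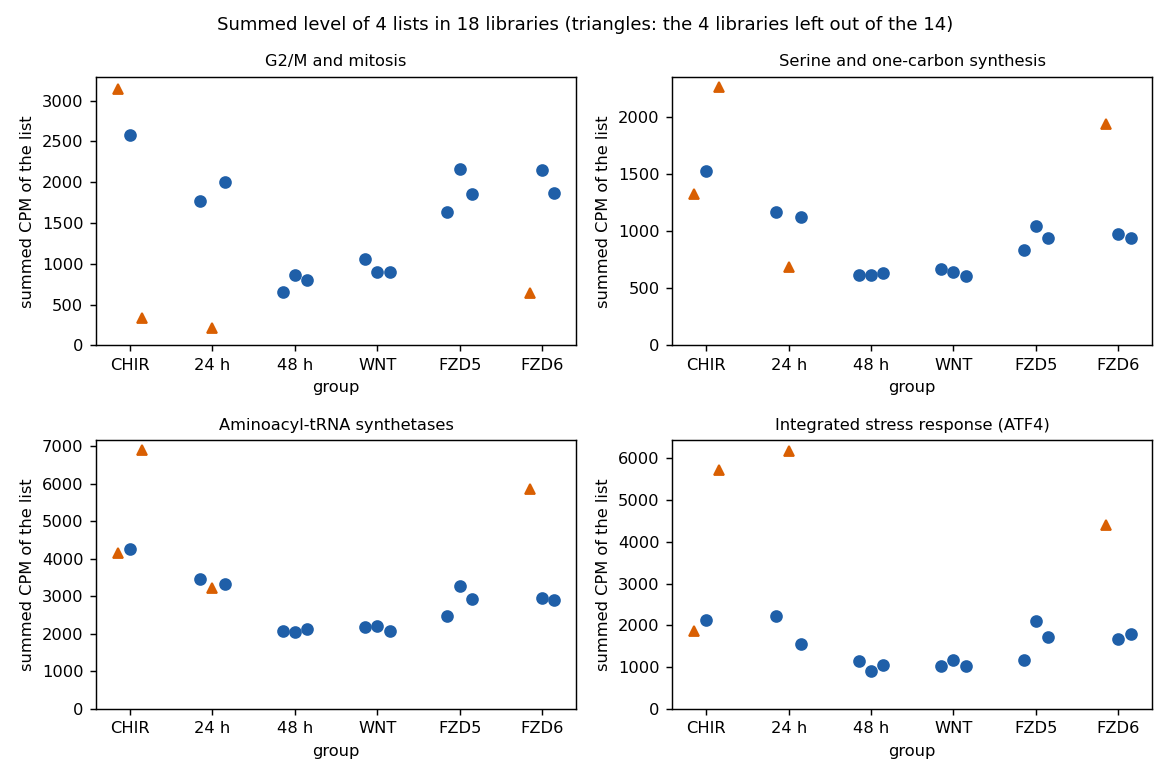
Summed CPM of 4 gene lists in the 18 libraries by group (CHIR, 24 h and 48 h withdrawal, WNT, FZD5 and FZD6), with the 4 libraries left out of the 14-library fit as triangles. FZD6 agonist 2 and 3 lie above 48 h withdrawal in all 4 panels, and FZD6 agonist 1 falls to 645 CPM in the G2/M panel and rises to 4391 CPM in the stress response panel.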

How the data were processed

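RNA was isolated with an RNAeasy kit, and 0.1 µg went into a stranded total RNA library, per the labels. The deposited tables hold whole-number read counts per gene, which the authors did not normalise, and RPKM values computed by the authors. GSNAP and GRCm38 are named in the submitters' processing notes; versions, a counter and whether strand was used in counting were not found in the labels (not given in the sources used here), so overlapping, antisense and near-identical genes are uncertain. Of 52636 gene identifiers 52489 (99.7%) matched GENCODE M21. Groups were taken from the sample titles.

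Counts were tested with edgeR 4.0.16 in R 4.3.3 (filterByExpr by group, TMM factors, robust glmQLFit, glmQLFTest, no covariates), with Benjamini-Hochberg adjustment over all genes tested, and called below 0.05. SE is the log2 fold change over the square root of F. RPKM was used only to compare Fzd6 with Fzd5. Scripts were tested on simulated data. Replicate numbers did not pair the libraries. No library pair of a group agreed within sampling noise.

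Members and lists were chosen with earlier results of these data known; the 14-library set was chosen after its libraries' values had been seen. In each fit the rule named the 10 highest and 10 lowest called genes (groups without overlap, mean log2 CPM from 2 upwards, a settled symbol), filled to 5 by smallest p, and up to 4 called members of each of 44 lists, with some genes fixed by name. Mcpt2, Zcchc14, the 6-library calls Itm2a and Fbp1, Cdc20, Myc, Sp5, Trib3, Aars, Mthfd2, S100g, Cav1, Rtkn2, Slc2a1, H2-Aa, Cd74, Cd44, Egfr, Xist, the cell type markers at 0, and the genes in the closing section were chosen after their values were seen. Znrf3 was likewise added after its values were seen. Alternatives were DESeq2 1.42.0, limma 3.58.1 voom, other scaling and filters, subsets of libraries, a block and a 1.5-fold test.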

Additional observations from a re-analysis of the deposited data

How the results depend on the processing

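With 18 libraries, the 2 calls became 2118 in the 14-library fit, 30 with only the 6 compared libraries, 3283 with only the 5 without FZD6 agonist 1, 61 by DESeq2, 3734 by limma voom with quality weights, 4 without a filter, 1 against a fold of 1.5 and 0 with 24 h withdrawal as the baseline. Leaving out 1 library at a time gave 0 to 3. With 14 libraries, the 2118 calls became 3941 by limma voom, 235 against a fold of 1.5 (187 higher, 48 lower) and 118 with 24 h withdrawal as the baseline, and leaving out 1 library at a time gave 782 to 1638, where a lone agonist library is assumed to vary like the other groups. Other scaling, DESeq2 and other filters gave 2128 to 2870. The causes were not tested. Same-numbered libraries deviated from their group means with correlations of -0.095, -0.114 and 0.0282, none was closest to its own number, and the fit with a replicate block called 1 gene over 18 libraries and 1526 over 14 (959 higher, 567 lower), so pairing was not used.

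Of 102 genes named here and called in the 14-library fit, 73 stayed called under each omission of 1 library. Only 3 of the 102 stayed called under every alternative tried. Of the 1426 refits of these genes, 201 gave a weaker result. Directions turned in 39, all with 24 h withdrawal as the baseline. On the log2 scale, genes higher than at 48 h had these values against 24 h: Phgdh -0.89, Asns -0.81, Mthfd2 -0.62, Slc7a5 -0.54, Psat1 -0.53, Shmt2 -0.51, Plaur -0.39, Gars -0.35, Srm -0.34, Atf4 -0.27, Tars -0.27, Hspa5 -0.25, Pycr1 -0.24, Nr1d1 -0.22, Bhlha15 -0.21, Yars -0.19, Iars -0.19, Hsp90b1 -0.18, Phlda1 -0.16, Aars -0.14, Lrp5 -0.0889, Ncl -0.0882, Sftpa1 -0.0838, Lgr5 -0.0402 and Cdc20 -0.0115. Genes lower than at 48 h had these: Amer1 0.0209, Retnla 0.0639, Ctnnb1 0.0936, Bambi 0.17, Fzd8 0.22, Mme 0.26, Birc3 0.33, Scd1 0.39, S100g 0.43, C3 0.45, Itm2a 0.60, Fbp1 0.63, Chil1 0.69 and Hp 0.79. Over 18 libraries Clu turned to -0.61 in the 14-library fit, -0.62 with 5 libraries and -0.59 by limma voom, Abcc8 to -2.17, -2.17 and -2.13, and Cxcl17 to -1.53, -1.54 and -1.49. Depth limits Axin2, Lgr5, Sox9 and Mcpt2, whose withdrawal libraries hold few counts.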

Other observations

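The genes in this section were chosen after their values were seen, and all values are from the 14-library edgeR fit unless stated. Gzme, a granzyme gene on chromosome 14 like Mcpt2, had 101, 27 and 40 counts in FZD6 agonist 1 to 3 and 1, 0 and 2 counts in 48 h withdrawal 1 to 3 (adjusted p = 1.52e-03). Both genes are known from mast cells or cytotoxic lymphocytes, and each was above withdrawal in all 3 agonist libraries. Steap2, a metalloreductase related to Steap1 and also on chromosome 5, was at 56.4, 71.1 and 74.9 CPM against 28.7, 23.9 and 27.4 CPM (log2 fold change 1.46 ± 0.0947 SE, adjusted p = 4.04e-07). Adamts1, a secreted protease, was at 348, 423 and 434 CPM against 138, 163 and 146 CPM (1.53 ± 0.192, adjusted p = 5.04e-04). Epha7, an ephrin receptor, was at 64.1, 135 and 133 CPM against 49.1, 45.7 and 46.7 CPM (1.51 ± 0.103, adjusted p = 5.83e-07). In all 3 of these the groups did not overlap.

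Nr1d1, a repressor of the circadian clock, was at 16.8, 32.8 and 38.7 CPM with the agonist and at 9.98, 9.70 and 8.84 CPM after withdrawal (1.92 ± 0.427, adjusted p = 0.0198). The hour at which cells were collected is not given in the sources used here, and its part in this difference was not tested. Cd200, a membrane protein that restrains macrophages, was at 84.2, 51.7 and 46.3 CPM against 132, 119 and 127 CPM (-1.36 ± 0.0875, adjusted p = 4.04e-07), and Liph, a phospholipase, at 61.5, 53.1 and 50.4 CPM against 148, 126 and 134 CPM (-1.39 ± 0.0965, adjusted p = 6.09e-07). Both were lower in every agonist library.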
